A study of Rattus norvegicus with 8 samples.

Results

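Cytochrome P450 family 2 genes of the rat kidney were examined after removal of the opposite kidney. The genes are Cyp2c11, Cyp2c23, Cyp2d2, Cyp2d4, Cyp2e1, Cyp2j4 and Cyp2s1, and they were taken by symbol from the gene probes of the array. They had been selected with the same comparison of nephrectomized and sham rats already in view, so their differences between these groups are given as a description. They were part of the fit over all genes, but how many of them passed there supports nothing. Of the 7 genes, 6 had a probe, with 1 probe each, among 19865 genes that entered the fit. No probe was matched to Cyp2c23, the main renal epoxygenase of the rat, and it was not analysed here.

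The right kidney, the one left in place, was taken from male rats of the inbred strain F344/NSlc at 10 weeks of age, and its total RNA was measured. There were 4 rats that had a sham operation and 4 that had unilateral nephrectomy, which leaves the right kidney to carry the whole load. The series text places sampling 2 days after the operation, whereas the source label gives day 1 for the sham samples and day 2 for the nephrectomized samples, so a difference between groups cannot be told apart from a difference of 1 day in sampling. Each rat's RNA was hybridised to its own 1-colour array, and each of 2 slides held replicates of both groups, 2 sham and 2 nephrectomized rats. Levels are log2 intensities from which the 75th percentile of the array was subtracted, so a value of 0 stands for the 75th percentile of that array, and levels of different probes are not compared with each other. The share of the 41012 gene probes that were well above background ran from 54.8% (the array of sham rat 1) to 65.5% (the array of nephrectomized rat 4), and none of their spots was saturated. The 6 measured genes were well above background on all 8 arrays.

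Cytochrome P450 enzymes are heme monooxygenases, and those of family 2 sit in the membrane of the endoplasmic reticulum and take their electrons from the reductase encoded by Por. In the kidney they are expressed mostly in the proximal tubule, where some members convert arachidonic acid to epoxyeicosatrienoic acids, lipid mediators of vessel tone and salt transport, and others oxidise drugs, solvents and ketone bodies. Several rat members differ between the sexes in the liver, and Cyp2c11 is the classical male form there, under the control of growth hormone. In bulk kidney RNA, fewer cells of a type and less of the transcript per cell cannot be told apart.

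The 250 bases before the annotated start of the 4 genes whose groups did not overlap are printed here. How alike these upstream sequences are was not measured. They are RefSeq sequences of the build GRCr8, written 5′ to 3′ on the strand of the gene, with capitals marking every match to 1 of 6 motifs searched on both strands.
Cyp2c11, chr1:246174966-246175215, plus strand: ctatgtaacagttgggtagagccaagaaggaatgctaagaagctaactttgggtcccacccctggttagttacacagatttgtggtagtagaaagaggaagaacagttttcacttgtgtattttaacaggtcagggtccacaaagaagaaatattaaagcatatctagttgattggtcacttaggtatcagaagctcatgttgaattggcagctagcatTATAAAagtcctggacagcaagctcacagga
Cyp2e1, chr1:205269717-205269966, plus strand: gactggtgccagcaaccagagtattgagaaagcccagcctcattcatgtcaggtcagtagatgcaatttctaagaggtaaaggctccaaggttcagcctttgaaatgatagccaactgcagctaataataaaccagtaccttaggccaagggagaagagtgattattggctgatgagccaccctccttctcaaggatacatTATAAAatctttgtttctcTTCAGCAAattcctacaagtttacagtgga
Cyp2d2, chr7:115819282-115819531, minus strand: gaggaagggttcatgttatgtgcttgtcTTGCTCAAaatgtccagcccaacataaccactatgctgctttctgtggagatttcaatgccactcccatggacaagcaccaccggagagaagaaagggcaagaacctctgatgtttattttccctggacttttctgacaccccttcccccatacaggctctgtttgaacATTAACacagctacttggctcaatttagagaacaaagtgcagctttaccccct
Cyp2d4, chr7:115771822-115772071, minus strand: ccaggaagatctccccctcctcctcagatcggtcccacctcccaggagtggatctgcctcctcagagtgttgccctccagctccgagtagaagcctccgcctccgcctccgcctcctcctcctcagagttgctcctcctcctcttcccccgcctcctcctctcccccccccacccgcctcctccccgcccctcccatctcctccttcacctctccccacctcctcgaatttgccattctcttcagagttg
The motifs were the STAT5 element TTCNNNGAA, the HNF4 core CAAAGTCCA, the C/EBP element TTGCNNAA, the D-box TTANGTAA bound by factors such as Tef and Dbp, the HNF1 core GTTAAT and the TATA box core TATAAA. Cyp2c11 and Cyp2e1 each held TATAAA, beginning 31 and 49 bases before the start, in windows of which 12.9% held it among 33465 gene starts. Cyp2d2 held a C/EBP match 222 bases before the start and an HNF1 core match on the opposite strand at 53, and Cyp2e1 held a C/EBP match on the opposite strand at 30. Among all windows 9.22% held the C/EBP element and 6.45% the HNF1 core. The window of Cyp2d4, with its long runs of c and t, held no match. Of the 3 members not printed, Cyp2j4 held a STAT5 element at 160, a motif found in 7.67% of windows, and a C/EBP match on the opposite strand at 149, and Cyp2s1 and Cyp2c23 held no match. No member window held the HNF4 core or the D-box, which occurred in 0.338% and 2.04% of windows. The matches are letters in a window and were not tested as binding sites.

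By position, Cyp2d2 and Cyp2d4 lie at either end of a run of Cyp2d genes on chromosome 7, and each has Cyp2d1, Cyp2d3, Cyp2d5 and the other of the pair among its 10 nearest coding genes. Cyp2c11 on chromosome 1 lies beside Cyp2c24, and Cyp2j4 on chromosome 5 lies between Cyp2j16 and Cyp2j3. Cyp2e1 has no family 2 gene among its 10 nearest coding genes. The sequences of the array probes were not in the files used here, so cross-hybridisation within the Cyp2c and Cyp2d groups was not tested.

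Of the epoxygenases, Cyp2c11 had the widest difference between groups of the 6 genes. Its level was 2.08, 2.86, 2.80 and 2.51 in sham rats 1 to 4, and 0.83, -0.08, 0.08 and -1.28 in nephrectomized rats 1 to 4. Every nephrectomized rat was below every sham rat, with a gap of 1.24 between the closest rats of the 2 groups. The means were 2.56 ± 0.36 and -0.11 ± 0.88 (SD, n = 4 each), a difference of -2.67 ± 0.40 (SE) on the log2 scale, or 6.37-fold lower after nephrectomy. The nephrectomized rats were also spread more widely than the sham rats, over 2.12 against 0.78 log2 units. Nephrectomized rat 4 was the lowest, and without it the difference was -2.28.

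Cyp2j4, the other arachidonate epoxygenase measured, overlapped between groups. Its level was 1.51, 2.15, 2.11 and 1.75 in the sham rats and 1.90, 1.09, 1.53 and 0.94 in the nephrectomized rats. Nephrectomized rats 1 and 3 lay within the sham range, and nephrectomized rats 2 and 4 lay below it. The difference was -0.51 ± 0.23, from 1.88 ± 0.31 to 1.36 ± 0.44 (SD, n = 4 each).

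Cyp2e1, which oxidises ethanol, acetone and small solvents, had the smallest spread relative to its difference. Its level was 5.05, 5.09, 5.19 and 5.08 in sham rats 1 to 4 and 4.33, 4.46, 4.52 and 4.36 in nephrectomized rats 1 to 4. The groups were separated by a gap of 0.53, several times the SD of either group. The means of 5.10 ± 0.06 and 4.42 ± 0.09 (SD, n = 4 each) differed by -0.68 ± 0.07, which is 1.61-fold lower after nephrectomy.

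The Cyp2d enzymes oxidise many basic drugs. Cyp2d2, the rat enzyme most often compared with human CYP2D6, was at 0.86, 1.19, 1.00 and 0.93 in the sham rats and at 0.32, 0.22, 0.64 and 0.08 in the nephrectomized rats. The groups did not overlap, but nephrectomized rat 3 came within 0.22 of sham rat 1. The difference was -0.68 ± 0.13, from 0.99 ± 0.14 to 0.31 ± 0.24 (SD, n = 4 each), or 1.6-fold lower. Cyp2d4, a form also known from the brain, was at 1.17, 1.33, 1.23 and 1.25 in the sham rats and at 0.89, 0.75, 0.79 and 0.35 in the nephrectomized rats. The groups were separated by 0.29, and the SD was 0.06 in sham and 0.24 in nephrectomized rats. The means of 1.24 and 0.69 differed by -0.55 ± 0.11, or 1.47-fold lower.

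Cyp2s1, a form found mainly outside the liver, in epithelia, was dim on every array and its groups overlapped. It was at -3.42, -3.05, -3.05 and -3.07 in the sham rats and at -3.27, -3.15, -3.13 and -2.91 in the nephrectomized rats. Sham rat 1 stood below the other 3 sham rats, which lay within a few hundredths of each other. The means of -3.15 ± 0.18 and -3.12 ± 0.15 (SD, n = 4 each) differed by 0.03 ± 0.11, and without sham rat 1 the difference was -0.06.

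**Figure D1:**
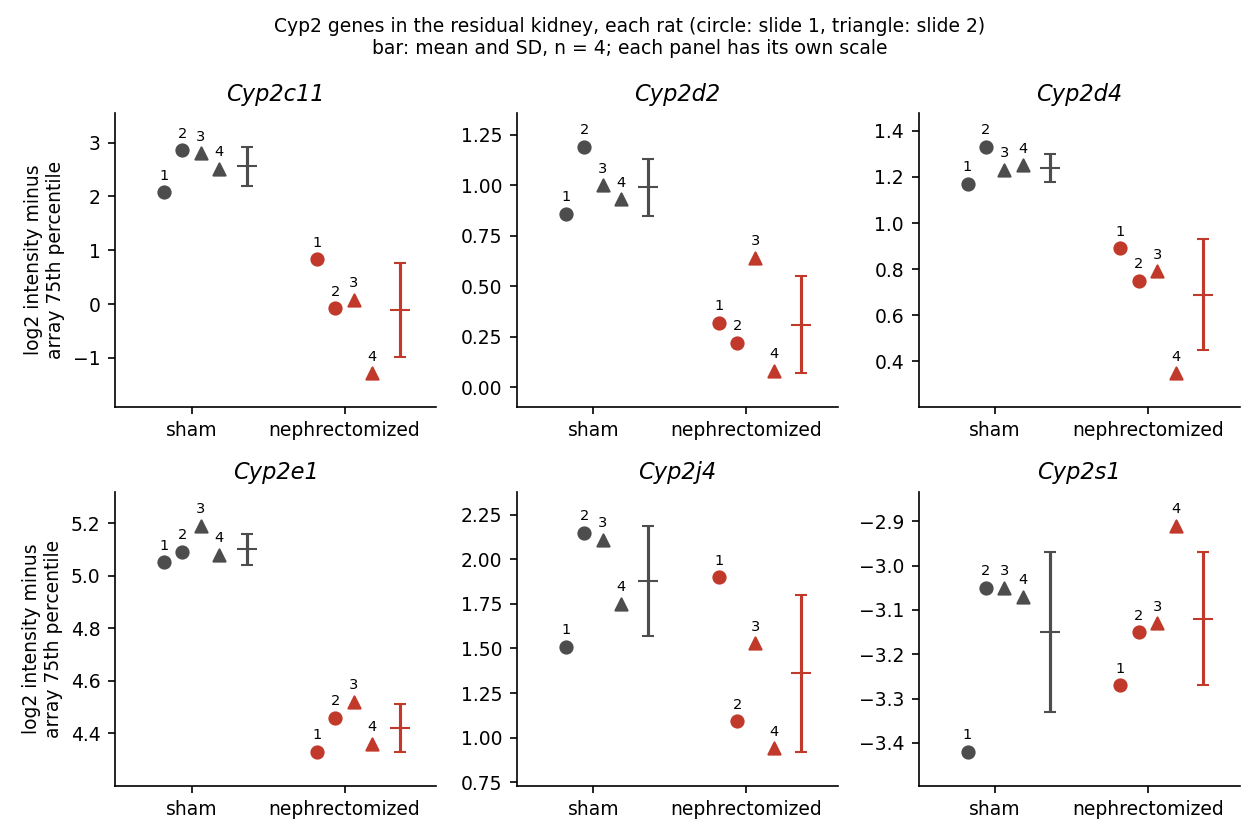
Level of each Cyp2 gene in every rat (log2 intensity relative to the 75th percentile of the array, vertical axis, own scale in each panel) in sham (grey) and nephrectomized (red) rats. Numbers are replicate labels, circles are slide 1, triangles slide 2, and bars the mean and SD of 4 rats; Cyp2c11, Cyp2d2, Cyp2d4 and Cyp2e1 do not overlap between groups, and Cyp2j4 and Cyp2s1 do.

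Of the 6 measured genes, 5 had a lower mean after nephrectomy, and the median of the 6 differences was -0.61. Over all genes tested the median difference was -0.0004, with the 10th and 90th percentiles at -0.23 and 0.25. Cyp2c11, Cyp2d2, Cyp2d4 and Cyp2e1 passed an adjusted p of 0.05 in the limma fit over all genes, against 1.02% of genes that passed downward and 2.57% upward. The same 4 lay below the sham range in all nephrectomized rats, against 5.08% of genes. The count of 4 that passed was 2 without sham rat 2, 3 or 4 or without nephrectomized rat 2, and 3 when another rat was left out. Cyp2d2 and Cyp2d4 each lost their call in 6 of 8 omissions (limma, adjusted p 0.0585 to 0.0796 and 0.059 to 0.11). Cyp2c11 and Cyp2e1 kept theirs whichever rat was left out. Since the genes were selected on this contrast, nothing is read from these counts. As values, the difference with 1 rat left out ran from -2.99 to -2.28 for Cyp2c11, from -0.79 to -0.60 for Cyp2d2, from -0.62 to -0.44 for Cyp2d4, from -0.72 to -0.65 for Cyp2e1 and from -0.69 to -0.37 for Cyp2j4.

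Sham rat 1 was the lowest sham rat for all 6 genes, and it was also the array with the smallest share of probes above background; the part of that array in the values was not tested. Without it the differences were -2.83 for Cyp2c11, -0.72 for Cyp2d2, -0.57 for Cyp2d4, -0.70 for Cyp2e1 and -0.64 for Cyp2j4. Because it was the lowest sham rat for each gene, its omission could only widen these 5 differences. They therefore say nothing on the part of that array.

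The slides gave a comparison that the selection of the genes had not used. With group and slide as terms, slide 2 minus slide 1 was -0.40 ± 0.40 (SE) for Cyp2c11, 0.01 ± 0.13 for Cyp2d2, -0.13 ± 0.11 for Cyp2d4, 0.05 ± 0.06 for Cyp2e1, -0.08 ± 0.24 for Cyp2j4 and 0.18 ± 0.10 for Cyp2s1. None of the 6 passed, with adjusted p from 0.486 to 0.971 by limma, and neither did any other gene (0% of 19865, with 2184 at an unadjusted p under 0.05).

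Within slide 1 the nephrectomized rats differed from the sham rats by -2.09 for Cyp2c11, -0.75 for Cyp2d2, -0.43 for Cyp2d4, -0.67 for Cyp2e1, -0.33 for Cyp2j4 and 0.02 for Cyp2s1. Within slide 2 the same differences were -3.25, -0.60, -0.67, -0.69, -0.69 and 0.04. The 5 lower genes were lower on both slides. For Cyp2c11, Cyp2d2, Cyp2d4 and Cyp2e1 this had to follow, because their groups do not overlap, and it is no separate support. Cyp2e1 had nearly the same difference on each slide. The test of the difference between slides passed for no member (limma, adjusted p of 1 for each) and for 0% of all genes, with 551 at an unadjusted p under 0.05. For Cyp2c11 this interaction was -1.16, with a 95% interval of -2.93 to 0.61, and for Cyp2e1 it was -0.02, with an interval of -0.36 to 0.32. With 2 rats a group on a slide, the interval for Cyp2c11 is wide.

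**Figure D2:**
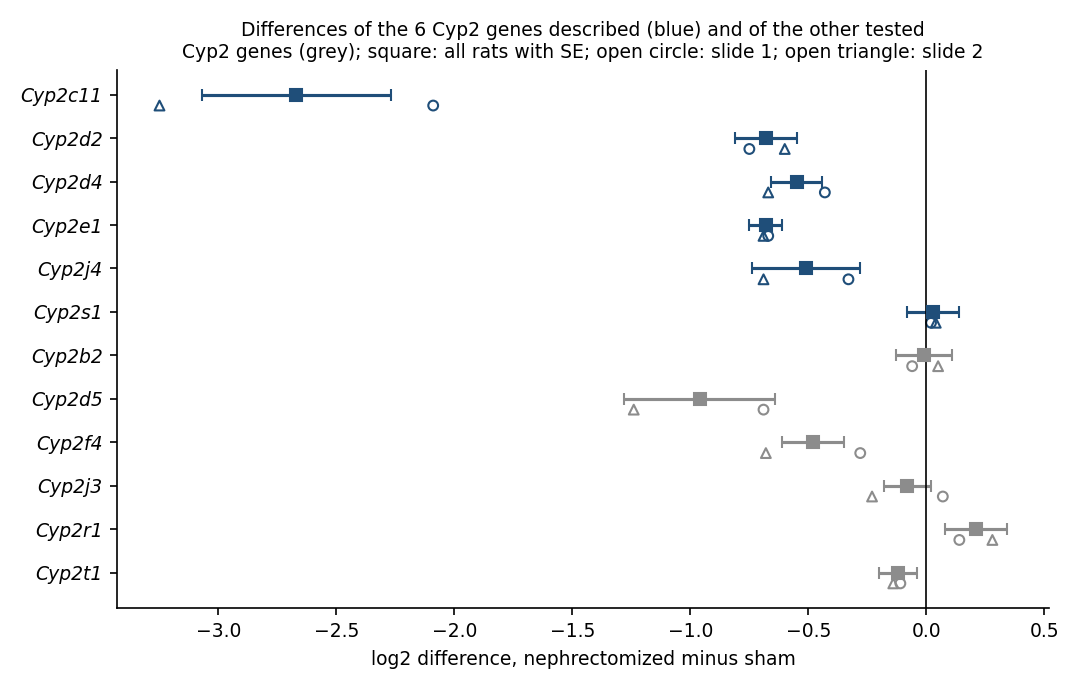
Difference in log2 level, nephrectomized minus sham, for the 6 genes described (blue) and for the other 6 Cyp2 genes bright enough to be tested (grey). Squares are all 8 rats with the SE from limma, open circles slide 1 and open triangles slide 2; Cyp2c11 lies far to the left of all others on both slides, and Cyp2e1 has its 2 slides almost on each other.

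The rats that were high within their group were the same for several of the genes. Cyp2c11 and Cyp2j4 put the rats in one order, with sham rat 2 highest and sham rat 1 lowest, and nephrectomized rat 1 highest and nephrectomized rat 4 lowest. Each rat's deviation from its group mean removes the difference between groups, and over the 8 rats the deviations of Cyp2c11 correlated at r = 0.950 with those of Cyp2d4, at 0.894 with those of Cyp2j4 and at 0.598 with those of Cyp2d2. The correlation was 0.173 with Cyp2e1 and -0.319 with Cyp2s1. These values describe 8 arrays that share an array's scaling, hybridisation and RNA across all its genes. The Cyp2c11 deviations were 0.95 in nephrectomized rat 1 and -1.17 in nephrectomized rat 4, against -0.48 to 0.30 in the sham rats. Nephrectomized rats 1 and 4 therefore weigh most in its correlations.

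For scale, the median correlation of the Cyp2c11 deviations with those of 9311 named genes above background on all arrays was 0.01, and 54 of them (0.58%) reached 0.9. The 3 genes most like Cyp2c11 in these deviations were Gamt (0.980), Hpdl (0.980) and Slc5a10 (0.979). Gamt encodes the enzyme that makes creatine from guanidinoacetate, and Slc5a10 a sugar transporter of the tubule. Cyp2e1 varied little among the rats of a group, with SDs of 0.06 and 0.09 against a median of 0.13 in sham and 0.14 in nephrectomized rats over all genes. Cyp2c11, at 0.36 and 0.88, was above the 90th percentile of 0.31 in both groups, and Cyp2j4 reached 0.31 and 0.44.

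**Figure D3:**
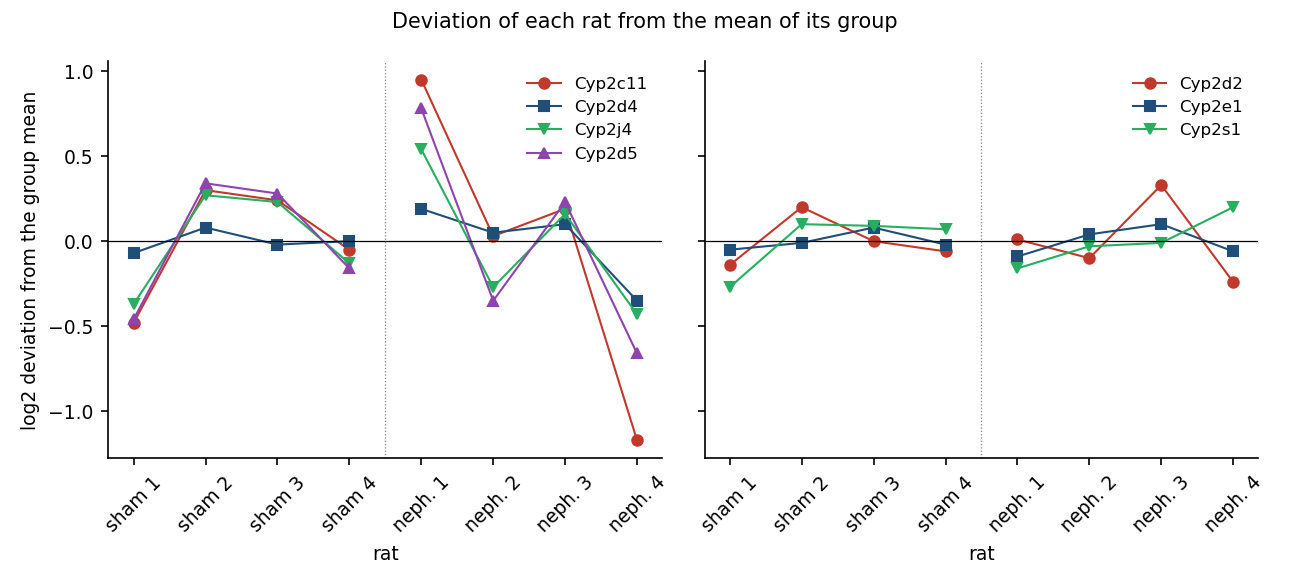
Deviation of each rat from its group mean (log2, vertical axis) for sham rats 1 to 4 and nephrectomized rats 1 to 4 (horizontal axis, neph. for nephrectomized). In the left panel Cyp2c11, Cyp2d4, Cyp2j4 and Cyp2d5 are all highest in sham rat 2 and nephrectomized rat 1 and lowest in sham rat 1 and nephrectomized rat 4, and in the right panel Cyp2d2, Cyp2e1 and Cyp2s1 have other orders among the nephrectomized rats.

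Taken over all 8 arrays, with the difference between groups included, the genes most like each member differed from member to member. The 3 highest correlations with Cyp2c11 were those of Fjx1 (0.988), Gamt (0.987) and Cyp2d4 (0.987), and with Cyp2d4 those of Gamt (0.991), Cyp2c11 (0.987) and Cp, ceruloplasmin (0.979). For Cyp2d2 they were Fcmr (0.991), Aspdh (0.987) and the fatty acid hydroxylase Cyp4f1 (0.985). For Cyp2e1 they were Crebrf (0.991), the sulfotransferase Sult1a1 (0.982) and St7l (0.981). For Cyp2j4 they were Eaf2 (0.998), Tff3 (0.996) and the lipid droplet gene Cidec (0.995). For Cyp2s1 they were Psmd5 (0.945), Iqcf1 (0.944) and Sft2d2 (0.940), and under quantile normalization the value for Psmd5 was 0.878.

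The rest of the family was mostly dark in these kidneys. Probes were matched to 22 other Cyp2 symbols, of which 6 were bright enough to be tested and 12 were above background on no array. None of the 6 passed. Cyp2d5, which lies in the same run as Cyp2d2 and Cyp2d4, was at 2.14, 2.94, 2.88 and 2.44 in the sham rats and at 2.42, 1.28, 1.87 and 0.98 in the nephrectomized rats. It overlapped between groups through nephrectomized rat 1, and the difference was -0.96 ± 0.32 (SE; limma, adjusted p = 0.152). Its deviations correlated at 0.996 with those of Cyp2j4 and at 0.922 with those of Cyp2c11, and at 0.799 and 0.663 with those of its neighbours Cyp2d4 and Cyp2d2.

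Cyp2f4, a lung-type enzyme of aromatic solvents, differed by -0.48 ± 0.13 (limma, adjusted p = 0.0914), from 0.51 ± 0.28 to 0.03 ± 0.08 (SD, n = 4 each) without overlap. Cyp2r1, a vitamin D 25-hydroxylase, differed by 0.21 ± 0.13 (adjusted p = 0.456). Cyp2j3, the neighbour of Cyp2j4, differed by -0.08, Cyp2t1 by -0.12 and Cyp2b2 by -0.01. With normexp background correction Cyp2b2 was at 0.02, so no direction is given for it.

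None of the other 5 Cyp2c symbols with a probe, 8 probes in all, passed the filter on dim probes. Cyp2c12, the female-typical form, and Cyp2c6v1, Cyp2c13 and Cyp2c22 were above background on no array. Cyp2c7 was above background with 1 probe on 1 array of each group, at -2.78 in sham rat 2 and at -1.38 in nephrectomized rat 1. Nephrectomized rat 1 was also the rat with the highest Cyp2c11 of its group. Cyp2c11 was therefore the only Cyp2c gene of those with a matched probe that was measured on all arrays.

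The tissue was compared with its markers. All 13 proximal tubule markers with a probe were tested, none passed, and their median difference was -0.11; their summed linear level relative to the 75th percentile was 1167 to 1205 in sham and 1097 to 1175 in nephrectomized rats. Slc7a13, an amino acid transporter of the last part of the proximal tubule, was at 3.87, 4.82, 4.93 and 4.24 in sham and at 4.25, 2.99, 3.77 and 2.72 in nephrectomized rats, a difference of -1.03 ± 0.37 (limma, adjusted p = 0.182). Its deviations correlated at 0.994 with those of Cyp2j4, at 0.990 with those of Cyp2d5 and at 0.887 with those of Cyp2c11, over the same 8 arrays. The correlation with Cyp2e1 was 0.205. Slc7a13 was the only proximal tubule marker correlated in this way, and of the other marker lists only Cidec and Apoh were. None of these genes stands for its list. Cidec was already among the 3 genes most like Cyp2j4, and Apoh was picked after its values were seen. Cidec of the adipocyte list correlated at 0.994 with Cyp2j4, at 0.997 with Cyp2d5 and at 0.908 with Cyp2c11, and Apoh of the hepatocyte list at 0.986, 0.985 and 0.899. Of the 9311 named genes, 153 (1.64%) reached 0.9 with Cyp2j4 and 148 (1.59%) with Cyp2d5. The other 2 proximal markers with the smallest p were Ggt1, at -0.42 ± 0.12 (adjusted p = 0.122), and Kap, at -0.32 ± 0.11 (adjusted p = 0.156). The part of the proximal tubule, or of one segment of it, in the Cyp2 values was not tested.

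No marker of the thick ascending limb and distal tubule (6 tested), collecting duct (8), podocyte (5), endothelium (6), leukocyte (4) or adipocyte (3) lists passed. The adrenal cortex list had no marker bright enough to be tested, and Cyp11b1, Cyp11b2, Cyp21a1 and Mc2r were above background on no array. Because several of the Cyp2 genes are best known from liver, 15 hepatocyte markers were read as well. Ttr, Serpina1, Tat, Apoa2 and Ahsg were above background on no array, and albumin with 1 of its 3 probes on 1 array, that of nephrectomized rat 4, the rat with the lowest Cyp2c11. Others were above background on more nephrectomized than sham arrays. These were Apoa1 (3 against 0), Hpx (2 against 0) and Cps1 (3 against 1). Cyp2a2 was above background on the arrays of sham rat 2 and nephrectomized rat 1, the rats with the highest Cyp2c11 of their groups. Its level was -1.83 in nephrectomized rat 1, but -4.67 in sham rat 2, below the -4.53 of sham rat 4. Hpx was above background in nephrectomized rats 1 and 4, the highest and the lowest in Cyp2c11. Apoa1 was so in nephrectomized rats 1, 2 and 4, and Cps1 in sham rat 3 and nephrectomized rats 1, 3 and 4. The summed linear level of the list was 23.6 to 25.1 in sham and 22.9 to 30.2 in nephrectomized rats. Most of this sum came from F2 and Apoc3, which were above background on every array. Their mean log2 levels were 3.49 and 3.27 in sham and 3.43 and 3.51 in nephrectomized rats. The sum therefore says little about the dim markers. Of the 5 markers tested, Fgb, a fibrinogen chain, rose by 0.82 ± 0.14 (limma, adjusted p = 0.0181; 0.0501 to 0.0594 without sham rat 2 or 3 or nephrectomized rat 4). Apoh, an apolipoprotein named after its values were seen, was at -1.35, -0.25, -0.31 and -0.67 in sham and at -0.98, -2.25, -1.45 and -2.55 in nephrectomized rats, a difference of -1.16 ± 0.37 (limma, adjusted p = 0.144). The part of hepatocyte transcripts in the Cyp2 values was not tested.

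Genes around the Cyp2 enzymes were read from lists drawn up by function, but with earlier results of these data known. Of 96 tested, 2 (2.08%) rose and 9 (9.38%) fell, against 2.57% and 1.02% of all genes. Because of how the lists were chosen, nothing is read from these shares. Of 19 genes of electron transfer and heme synthesis, all tested, 1 rose and 1 fell, with a median difference of -0.00. Por, the reductase that supplies electrons to all microsomal P450s, was at 3.29, 3.38, 3.28 and 3.13 in sham and at 2.81, 2.93, 2.99 and 2.72 in nephrectomized rats. It fell without overlap by 0.41 ± 0.08 on the log2 scale (limma, adjusted p = 0.033), and its call was lost in 6 of 8 omissions, those of sham rats 1, 2 and 3 and of nephrectomized rats 1, 2 and 4 (adjusted p 0.0681 to 0.105). Its deviations correlated at 0.725 with those of Cyp2d2, at 0.615 with those of Cyp2e1 and at 0.396 with those of Cyp2c11. Cyb5r1, a cytochrome b5 reductase, rose by 0.30 ± 0.06 (adjusted p = 0.0236), with a second probe at 0.27. Its call was lost in 6 of 8 omissions, all but those of sham rat 1 and nephrectomized rat 3 (adjusted p 0.0578 to 0.0888).

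Of 20 tested genes that release arachidonic acid or lead it into other products, 1 passed, and the median was -0.09. Cyp4f1, a fatty acid hydroxylase, fell by 0.36 ± 0.07 (limma, adjusted p = 0.03). Its adjusted p was 0.0671 to 0.105 with the omission of any of sham rats 2 to 4 or of nephrectomized rats 1, 2 and 4. Ephx2, the soluble hydrolase that removes the epoxides made by Cyp2c and Cyp2j enzymes, differed by -0.05 ± 0.11 (adjusted p = 0.855) and was named after its value was seen. Cyp4a2 and Cyp4a8, hydroxylases that make the vasoconstrictor product of the same fatty acid, were named likewise, and differed by -0.63 ± 0.26 and -0.39 ± 0.16 (adjusted p = 0.252 and 0.263). Hpgd and Alox5ap, also named likewise, differed by -0.86 ± 0.22 and -0.39 ± 0.09 without passing (limma, adjusted p = 0.0731 and 0.0512). Of the 20 genes, 13 had a lower mean.

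Of 13 tested genes in the list of nuclear receptors and factors of Cyp2 genes, 2 fell and the median was -0.05. Their binding to Cyp2 promoters was not tested. Tef, a factor of the daily clock that binds the D-box, fell by 0.62 ± 0.10 (limma, adjusted p = 0.0159), from 1.14 ± 0.17 to 0.52 ± 0.13 (SD, n = 4 each). Without sham rat 3 or 4 or nephrectomized rat 4 its adjusted p was 0.0519 to 0.0578. Hnf4a, the nuclear receptor that drives many proximal tubule and liver genes, fell by 0.27 ± 0.05 (adjusted p = 0.0236). It lay between 4.47 and 4.49 in sham and between 4.19 and 4.23 in nephrectomized rats, its other probes differed by -0.29 and -0.37, and the mean of its probes did not pass (adjusted p = 0.0682). Omitting any of sham rats 2 to 4, or either of nephrectomized rats 2 and 4, also ended its call (adjusted p 0.068 to 0.0878). The receptor for xenobiotics Nr1i2 differed by 0.05 ± 0.07 (adjusted p = 0.809) and was named after its value was seen. Cebpb, Cebpd and Dbp, named likewise, differed by -0.67 ± 0.15, -0.66 ± 0.15 and -0.44 ± 0.10 without passing (limma, adjusted p = 0.0545, 0.0566 and 0.0545). Of the 13 genes, 8 had a lower mean.

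Of 16 tested genes of growth hormone, prolactin and sex steroid signalling, on which male-typical Cyp2c11 depends in liver, 1 passed and the median was -0.05. Srd5a1, a steroid reductase that makes dihydrotestosterone, rose by 0.52 ± 0.10 (limma, adjusted p = 0.0317), with its dimmer probe at 0.34. The call was lost in 6 of 8 omissions, all but those of sham rat 1 and nephrectomized rat 2 (adjusted p 0.0713 to 0.104). The growth hormone receptor Ghr differed by -0.07 ± 0.09 (adjusted p = 0.746), and Stat5b, which carries its signal to Cyp2c11 in liver, by -0.23 ± 0.10 (0.268). Esr1 differed by -0.42 ± 0.10 without passing (limma, adjusted p = 0.063). Ghr, Stat5b and Esr1 were named after their values were seen. Of the 16 genes, 9 had a lower mean.

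Of the other oxidising and conjugating drug enzymes, 19 of 22 tested genes were below 0, with 5 falling and none rising. Their median was -0.28, against -0.0004 over all genes tested. This list too was chosen with earlier results known, so nothing is read from its counts. Sult1a1, a sulfotransferase of phenols, was at 2.30, 2.39, 2.52 and 2.37 in sham and at 1.68, 1.61, 1.63 and 1.51 in nephrectomized rats. It fell without overlap by 0.79 ± 0.07 (limma, adjusted p = 0.00108), and like Cyp2e1 it had SDs under 0.10 in both groups. Among the flavin monooxygenases, which also oxidise drugs in the endoplasmic reticulum, Fmo2 fell by 0.67 ± 0.10 (adjusted p = 0.00728) and Fmo5 by 0.45 ± 0.07 (0.0126). Aldh1a1, a retinal and aldehyde dehydrogenase, fell by 0.30 ± 0.05 (0.0198). Sult1a1 and Fmo2 kept their calls whichever rat was left out. Fmo5 lost its call without nephrectomized rat 4 (0.0537), and Aldh1a1 without that rat or sham rat 2, 3 or 4 (0.0543 to 0.0793).

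**Figure D4:**
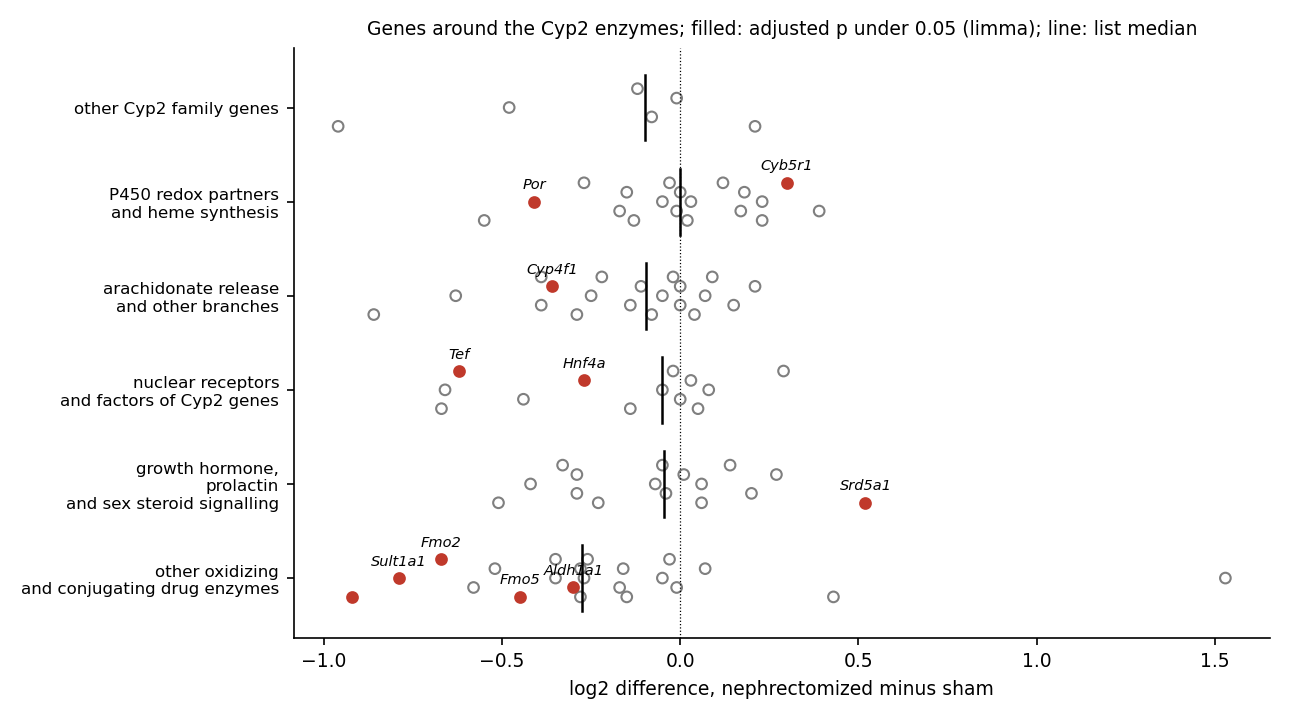
Difference in log2 level, nephrectomized minus sham (horizontal axis), of every tested gene of 6 lists around the Cyp2 enzymes, 1 point a gene, spread vertically only to separate them. Filled red points passed an adjusted p of 0.05 by limma, with names at those the text describes, and black lines are list medians; the drug enzyme list lies furthest to the left, with 5 genes passing, and no other Cyp2 gene passed.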

How the data were processed

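Total RNA of 8 kidneys was labelled with Cy3, per the labels' protocols. The authors deposited each array's spot intensity, extracted with Agilent Feature Extraction 10.5.1.1 (protocol GE1_105_Dec08), background-subtracted within the array, per the file headers. A deposited log2 table of 30448 probes served as an alternative (across probes, r = 0.99998 against values recomputed the same way). Control spots and outlier spots were left out, log2 intensity was averaged per probe, and the array's 75th percentile was subtracted. RefSeq accessions were matched to symbols of the GRCr8 assembly (18713 of 41012 probes). A probe was kept if every array of 1 or both groups had it well above background (23982 probes), and the brightest probe of a gene was used (19865 genes). The comparison was fitted in limma 3.58.1 (R 4.3.3; two-sided, no covariates), with p adjusted over all genes by Benjamini-Hochberg and 0.05 as threshold. Slide and scan, read from the headers, coincide.

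The members and the lists were chosen with earlier results of these data known. Named in each list were the genes that passed or, if none did, the 3 with the smallest p (for marker lists in part), and for each member the 3 most correlated genes. Some genes that meet this rule are not reported here. Nothing states separate cultures or litters beyond 1 sample a rat, and p-values measure the spread between these samples. Same-numbered rats of the groups were not treated as pairs. Their deviations correlated at 0.103, 0.0112, 0.101 and -0.0176, which cannot show whether the rats were paired. The limma fit was tested on simulated data. The number of arrays limits the precision. Alternatives were quantile normalization, median scaling, normexp (offset 50, on the median spot intensity), the deposited table, other filters and probe rules, an intensity trend, slide or replicate number as a block, single slides, and each rat left out.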

Additional observations from a re-analysis of the deposited data

Results flagged for a closer look

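In 56 groups of 4 rats (28 genes: the 12 tested Cyp2 genes and the named genes around them), 5 values lay far from the other 3 rats of their group, where chance flags about 1 in 20 groups. Cyp2s1 was low in sham rat 1, at -3.42. Cyp2f4 was high in nephrectomized rat 3, at 0.14, and Cyp2r1 was high in sham rat 4, at -0.81. Cyp2j3 stood apart in sham rat 1, at -1.69, and in nephrectomized rat 4, at -1.78.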

How the results depend on the processing

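The 4 Cyp2 genes whose groups did not overlap kept their direction under all alternatives run. With a rat left out or on single slides this had to follow from the lack of overlap. The number of the 6 that passed was 4 under 9 of them (quantile normalization, median scaling, normexp, the deposited table, the filter on all arrays, both probe rules, the intensity trend and slide as a block). It was 2 with no filter on dim probes, 1 with the replicate block, 0 on slide 1 on its own, 0 on slide 2 on its own, and 2 to 3 with a rat left out. Single slides have 2 rats a group. The replicate number was not taken as a pairing of the rats, and a call lost under the replicate block is not described as a weaker difference. Whether the rats were paired by number was not tested. Of the genes in the lists around the Cyp2 enzymes, 11 passed, and 17 did with normexp, 2 with no filter, 21 with an intensity trend, 3 with the replicate block and 2 to 12 with a rat left out; the cause was not tested. Differences near 0 changed sign: Cyp2b2 with normexp (0.02), on slide 2 on its own (0.05) and between -0.09 and 0.06 with a rat left out, Cyp2j3 on slide 1 on its own (0.07), and Cyp2s1 between -0.06 and 0.08 with a rat left out. Cyp2f4 passed with slide as a block (limma, adjusted p = 0.0374). The slide and interaction counts among the 6 genes were 0 under normexp, quantile normalization and every probe on its own. With the replicate block 296 of all genes passed, and with no filter 282, against 714.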
